A study of Mus musculus with 98 samples.

Results

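A group of 10 genes of fatty acid synthesis and desaturation were followed through all RNA-seq libraries of a study on gain and loss of STAT5 in mouse CD4 T cells. They were taken by symbol as Acly, Acaca, Fasn, Scd1, Scd2, Fads1, Fads2, Elovl1, Elovl5 and Elovl6, and all 10 are among the 22987 symbols that every count table holds. STAT5 is a pair of transcription factors, products of Stat5a and Stat5b, which act downstream of the receptor for interleukin-2 (IL-2). The 88 RNA-seq libraries form 43 groups in 7 sets, with 3 libraries per group in set 1 and 2 in every other group. Their depth was 3.9 to 49.1 M counts, with a median of 16.9 M. The values below are counts-per-million values (CPM), which are not corrected for transcript length, so levels are compared only between libraries for the same gene and never between genes.

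All cells came from C57BL/6 mice, with spleen and peripheral lymph nodes pooled. Outside set 6, naive CD4 T cells were sorted and activated through CD3 and CD28 with antibodies. In set 1, wild-type cells were rested overnight and taken on day 3, or were rested and then given human IL-2 for 18 h and taken on day 4, so the cytokine and the added culture time cannot be told apart. Sets 2, 3 and 5 hold wild-type cells and cells from mice carrying Cd4-Cre and floxed alleles of both Stat5 genes, called STAT5-deficient here, in which Cre acts in T cells under Cd4 control. These cells carried retroviral vectors, all received IL-2 for 18 h, and were taken on day 4. Set 2 used control, STAT5 and MYC vectors, and set 3 used control, STAT5, AKT and CD25 vectors. Set 5 used pairs of vectors, namely control with control, STAT5, MYC or AKT, and STAT5 with MYC or AKT. In set 4, wild-type and STAT5-deficient cells were grown to day 3 as Th0 (no added cytokine), Th1 (IL-12), Th2 (IL-4), Th17 (TGF-β and IL-6) or induced regulatory T (iTreg; TGF-β) cultures, all but Th0 with blocking antibodies. Set 6 compared regulatory T (Treg) cells taken from the animal with the same cell type after overnight culture with IL-2, so culture and IL-2 cannot be told apart. Set 7 used IL-2, and all its groups were labelled Th0 and taken on day 4. It compared wild-type cells, cells with no Stat5a and 1 copy of Stat5b, and cells with no Stat5b and 1 copy of Stat5a. The labels do not say whether replicates came from separate animals, so the p-values below measure the spread between these libraries, which may be technical.

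Growing cells make fatty acids in the cytosol from citrate exported by mitochondria. ATP citrate lyase (Acly) turns citrate into acetyl-CoA, acetyl-CoA carboxylase (Acaca) turns acetyl-CoA into malonyl-CoA, and fatty acid synthase (Fasn) joins these units into palmitate. The stearoyl-CoA desaturases Scd1 and Scd2 place the first double bond in saturated chains, Fads1 and Fads2 desaturate polyunsaturated chains, and the elongases add carbons, with Elovl6 acting on palmitate, Elovl5 on polyunsaturated chains and Elovl1 on very long chains. Sterol regulatory element binding proteins (Srebf1, Srebf2) are the textbook activators of most of these genes, and Insig1, itself one of their targets, holds them back. Activated T cells use the pathway to build membranes.

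Regulatory sequence just upstream of the members differed from gene to gene. RefSeq promoters (GRCm38.p6, 250 bases before to 50 after the start) were at hand for 7 of the 10 members, with 2 starts for Elovl1. The 4 shown are those of Fasn and Fads2, which of these 7 fell most on STAT5 loss, of Elovl5, which fell least, and of Elovl6, which changed most in Treg cells. They lie at chr11:120824498-120824797 (minus strand), chr19:10101454-10101753 (minus strand), chr9:77917115-77917414 (plus strand) and chr3:129532136-129532435 (plus strand). Each is written 5′ to 3′ on its own strand, and capitals mark matches on either strand to the motifs described after them.
Fasn: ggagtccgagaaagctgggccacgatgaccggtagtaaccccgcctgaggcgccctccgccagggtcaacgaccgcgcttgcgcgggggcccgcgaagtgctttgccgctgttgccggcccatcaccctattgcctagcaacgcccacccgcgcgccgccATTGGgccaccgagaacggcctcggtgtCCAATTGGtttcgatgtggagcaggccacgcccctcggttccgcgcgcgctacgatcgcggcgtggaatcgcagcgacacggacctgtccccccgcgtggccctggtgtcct
Fads2: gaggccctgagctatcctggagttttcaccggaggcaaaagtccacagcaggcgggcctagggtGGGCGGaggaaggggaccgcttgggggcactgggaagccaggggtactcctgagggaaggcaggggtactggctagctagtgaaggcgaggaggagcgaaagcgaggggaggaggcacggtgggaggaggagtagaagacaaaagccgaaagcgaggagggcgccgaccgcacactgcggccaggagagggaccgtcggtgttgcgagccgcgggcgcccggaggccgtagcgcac
Elovl5: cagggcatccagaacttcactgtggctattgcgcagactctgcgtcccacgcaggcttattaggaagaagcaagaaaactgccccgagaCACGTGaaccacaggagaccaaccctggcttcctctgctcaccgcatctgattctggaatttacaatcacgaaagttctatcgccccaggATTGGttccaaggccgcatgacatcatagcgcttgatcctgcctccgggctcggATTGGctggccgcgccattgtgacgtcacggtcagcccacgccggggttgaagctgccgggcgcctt
Elovl6: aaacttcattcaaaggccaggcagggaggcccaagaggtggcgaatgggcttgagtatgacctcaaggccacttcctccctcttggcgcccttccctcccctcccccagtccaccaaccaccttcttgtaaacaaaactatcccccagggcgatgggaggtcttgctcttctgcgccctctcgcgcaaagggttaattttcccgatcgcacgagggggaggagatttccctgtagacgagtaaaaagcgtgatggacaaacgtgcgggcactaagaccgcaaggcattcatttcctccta
The motifs searched on both strands were the E-box CACGTG, the STAT palindrome TTCNNNGAA, the CCAAT box CCAAT, the GC box GGGCGG and the sterol regulatory element, sought as 1 fixed string. Fasn has 3 CCAAT matches, starting 90, 62 and 59 bases before the start site, of which the last pair overlap. Fads2 has 1 GC box starting 186 bases before the start site, Elovl5 has an E-box starting 161 bases before it and CCAAT matches starting 71 and 17 bases before it, and Elovl6 has no match. Over the 7 genes, the CCAAT box was in 4 (Fasn, Elovl5, Acly and Elovl1), the GC box in 3 (Fads2, Acly and Elovl1) and the E-box in 1 (Elovl5), against 37.4%, 35.7% and 7.15% of all 32851 mouse promoters. At the first listed Elovl1 start a GC box and a CCAAT match overlap. The STAT palindrome, present in 8.3% of promoters, and the sterol regulatory element, present in 0.0913%, were in none of the 7. A match describes letters in a window and is no evidence of binding, and no match says only that the letters are not in that window.

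The libraries were checked against their labels before the members were compared. Stat5a lay at 69.3 to 99.6 CPM in the 6 wild-type and 2.0 to 19.2 CPM in the 6 STAT5-deficient control-vector libraries, and at 151 to 566 against 1.76 to 4.75 CPM in the cultures of set 4. The T cell genes Cd3e, Cd4 and others of a list of 5 were high in all of them, with summed CPM of 1843 to 2218 and 2680.5 to 3073. The myeloid and antigen-presenting list of 9 genes summed to 39.3 to 157 against 77.8 to 266 CPM, the B cell list of 4 to 1.01 to 3.11 against 4.02 to 12.2, and Rn45s, a ribosomal precursor transcript that poly(A) selection should remove, to 742 to 3212 against 1806 to 10454. The CD8 T and NK cell list of 4 summed to 10.5 to 17.4 against 17.3 to 30.5 CPM. The Treg list of 4, which includes the IL-2 receptor chain Il2ra, itself a known target of STAT5, summed to 2353 to 3079 against 484 to 641 CPM, and its transcription factor gene Foxp3 lay at 15.4 to 32.5 against 18.1 to 36.0 CPM. The part of these differences in the comparisons of genotypes was not tested. In bulk RNA, fewer cells of a type and less RNA per cell cannot be told apart. A total of 5 libraries stood apart. The first 4 were STAT5-deficient control replicate 2 of set 2, with 10454 CPM of Rn45s, the wild-type STAT5 replicate 2 of set 3, with 3.9 M counts and Stat5a at 138 CPM against 608 in its partner, and the STAT5-deficient control and MYC replicates 1 of set 5, with Stat5a at 19.2 and 18.4 CPM. Calls for the retroviral sets are given with and without these 4 where they differ. The last is STAT5-deficient STAT5 and AKT replicate 1 of set 5, with 209323 CPM of Rn45s, which was left out on its own in the comparisons it enters.

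All 10 genes rose with IL-2 after rest in wild-type cells. Scd1 lay at 6.50, 4.57 and 8.16 CPM in the 3 rested libraries and at 49.3, 55.3 and 44.7 CPM in the 3 with IL-2. Fads2 lay at 7.72, 5.08 and 6.0 CPM at rest and 51.2, 48.9 and 51.6 CPM with IL-2. Both desaturase genes were low in every rested library and far higher in every IL-2 library. Fasn went from 96.4, 105 and 103 CPM to 579, 496 and 419 CPM. The log2 fold changes were 3.12 ± 0.13 (SE, n = 3 and 3; adjusted p = 2.2e-13, edgeR) for Scd1, 3.16 ± 0.11 (1.4e-14) for Fads2 and 2.45 ± 0.09 (2.2e-14) for Fasn. The rested and IL-2 libraries did not overlap for any member, and of all genes tested 35.1% were higher in every IL-2 library than in every rested one. The genes that feed palmitate synthesis rose too, with Acly at 229.6, 226 and 229.7 CPM against 579, 566 and 556 and a change of 1.46 ± 0.05, and Acaca at 50.9, 48.4 and 52.9 against 139, 128 and 123 and 1.51 ± 0.07. Scd2 and the elongases moved less, with log2 fold changes of 0.91 for Scd2, 1.02 for Elovl1, 0.84 for Elovl6 and 0.61 for Elovl5, and Fads1 rose by 1.48. Of all genes tested, 40.7% were called higher, and the median log2 fold change was 1.47 for the members against -0.01 for all genes.

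Other genes of the pathway moved in both directions with IL-2, where 40.7% of all genes were called higher and 40.3% lower. On the list of 13 genes that regulate fatty acid supply, 12 were tested, 6 rose and 2 fell. Insig1 rose by 1.87, Srebf2 by 0.82 and Srebf1 by 0.55 on the log2 scale. Nr1h3, a sterol-sensing nuclear receptor that activates Srebf1, fell (-2.27 ± 0.28, adjusted p = 5.7e-07, edgeR). Its level was low, with a mean of 1.14 CPM over the 43 groups. Of 8 tested genes that supply acetyl-CoA, malonyl-CoA or NADPH, 5 rose, among them the mitochondrial citrate carrier Slc25a1 (1.46), and 3 fell. Of 10 tested further elongation and desaturation enzymes, 4 rose and 3 fell. Of 19 tested genes for activation, binding and esterification, 13 rose, led by the acyl-CoA synthetase Acsl6 (3.34) and the fatty acid binding protein Fabp5 (2.88), and 5 fell, with the lipid droplet protein Plin2 at -2.28. Myc rose by 1.02. The summed T cell, myeloid and B cell lists and Rn45s were all lower with IL-2, at 1879 to 1913 against 2495 to 2511, 30.6 to 33.5 against 94.6 to 111, 2.85 to 3.09 against 16.1 to 16.7 and 1089 to 1313 against 2581 to 3712 CPM. The CD8 T and NK cell list was lower too, at 9.33 to 12.0 against 20.8 to 23.7 CPM, and the Treg list was higher, at 2273 to 2377 against 583 to 652 CPM, most of it Il2ra at 2071 to 2171 against 237 to 248. The part of these lists in the rise of the members was not tested. Of the myeloid list, Itgax was at 0 in all libraries at rest and Lyz2 in all those with IL-2.

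**Figure D1:**
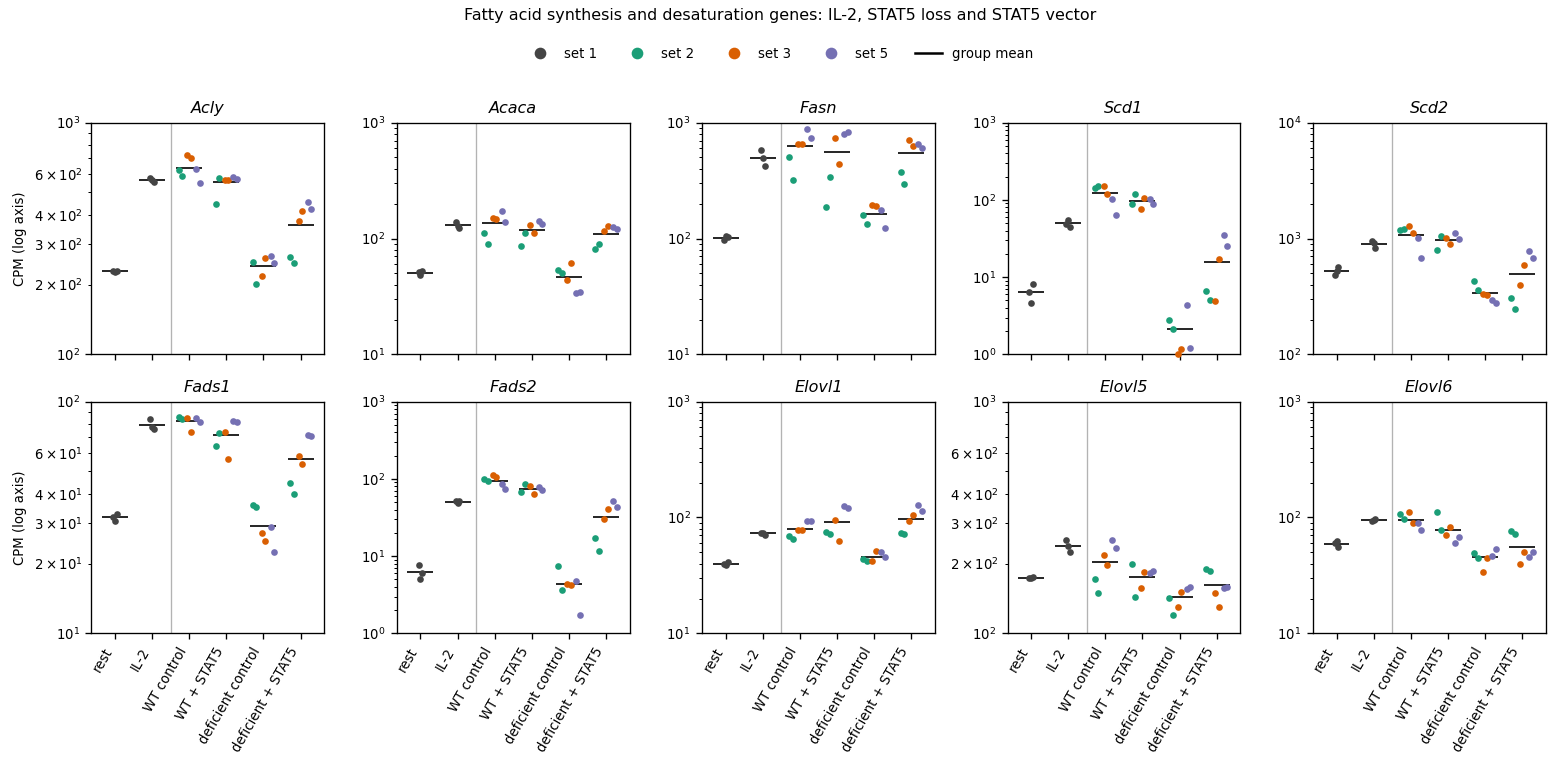
CPM on a log axis for each member in each library at rest, with IL-2, and with control or STAT5 vectors in wild-type and STAT5-deficient cells; points are libraries coloured by set and lines are group means. Every member is higher with IL-2 than at rest and lower in STAT5-deficient than in wild-type control-vector cells, with Scd1 at 1.02 to 4.37 against 64.6 to 152 CPM.

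Loss of STAT5 under IL-2 lowered all 10 genes. In the 6 wild-type control-vector libraries of sets 2, 3 and 5, Scd1 had a lowest, median and highest level of 64.6, 129.9 and 152 CPM, against 1.02, 1.67 and 4.37 CPM in the 6 STAT5-deficient ones. Fads2 had 74.0, 95.9 and 111 CPM in wild-type and 1.73, 4.28 and 7.44 CPM in deficient libraries. Both genes were far apart between genotypes, with log2 fold changes of -6.18 ± 0.30 (adjusted p = 8.5e-19, edgeR) and -4.73 ± 0.19 (2.3e-21). Scd1 rested on 9 to 49 counts in a deficient library, so its size is imprecise. Scd2, which acts on the same substrates as Scd1, had 682, 1149 and 1278 CPM against 277, 329 and 430.1 CPM and a change of -1.91 ± 0.13 (2.6e-15). Scd1 and Scd2 are close copies of each other, and how the counting split shared reads is not given in the sources used here, so values of this pair are uncertain.

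The enzymes of palmitate synthesis fell together on STAT5 loss. Acly had 549, 627 and 725 CPM as lowest, median and highest wild-type level and 202, 249.7 and 265 CPM without STAT5. Acaca had 90.3, 143 and 171 against 33.9, 47.2 and 61.8 CPM, and Fasn 321, 650.5 and 882 against 123, 169 and 193 CPM. No deficient library reached a wild-type one for these 3 genes, and their log2 fold changes were -1.63 ± 0.09, -1.78 ± 0.10 and -2.13 ± 0.14 (adjusted p = 5.7e-18, 7.4e-17 and 4.3e-15). Fads1 fell by 1.76 on the log2 scale. Among the elongases, Elovl6 changed by -1.30 ± 0.10, Elovl1 by -1.02 ± 0.08 and Elovl5 by -0.72 ± 0.07 (adjusted p = 3.5e-14, 2.7e-13 and 7.6e-11). Elovl5 was the only member whose groups overlapped, at 149, 208 and 252 CPM against 120.3, 147 and 159, and of all genes tested 13.2% were lower in every deficient than in every wild-type library. Of all genes tested, 30.9% were called lower, and the median log2 fold change was -1.77 for the members against 0.05 for all genes. Each member was called lower within each of the 3 sets as well, and in the fit without the first 4 libraries that stood apart.

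Most regulators of the pathway fell as well. Srebf2 changed by -1.22 ± 0.12, Srebf1 by -0.98 ± 0.13 and Insig1 by -2.15 ± 0.07 on loss of STAT5 (adjusted p = 7.9e-11, 2.3e-08 and 6.7e-23, edgeR). Nr1h3, low at a mean of 1.14 CPM over the 43 groups, rose by 3.05. In all, 9 of 13 regulators fell and 2 rose, where 30.9% of all genes were called lower and 28.9% higher. Of the 9 supply genes 5 fell, led by Idh1 (-1.65), a cytosolic source of NADPH, and Slc25a1 (-1.58), and 2 rose. Of 13 further elongation and desaturation genes 6 fell and 1 rose. Of 19 activation, binding and esterification genes 12 fell, including Acsl6 (-4.95) and Fabp5 (-3.07), and 3 rose. Myc changed by -1.64 ± 0.18.

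Averaged over sets 2, 3 and 5, a STAT5 vector in STAT5-deficient cells raised all 10 genes, although Scd2 was called lower in set 2. Over the 6 deficient libraries with that vector, the lowest, median and highest levels were 4.94, 11.9 and 35.2 CPM for Scd1, against 1.02, 1.67 and 4.37 CPM with control vectors. Fads2 had 11.5, 35.4 and 52.1 CPM and Fasn 296, 619.6 and 704 CPM, each above every control-vector library of the same genotype. The log2 fold changes were 2.85 ± 0.31 for Scd1, 2.94 ± 0.18 for Fads2 and 1.83 ± 0.14 for Fasn (n = 6 and 6; adjusted p = 5.8e-10, 4.5e-16 and 1.3e-13, edgeR). Acaca changed by 1.40 ± 0.10, Elovl1 by 1.20 ± 0.08 and Fads1 by 1.09 ± 0.09, also without overlap of the groups. The groups did overlap for Acly (0.70 ± 0.08), Scd2 (0.62 ± 0.12), Elovl6 (0.41 ± 0.10) and Elovl5 (0.31 ± 0.07). Of all genes 16.3% were higher in every library with the STAT5 vector than in every control-vector one, 31.9% were called higher, and the medians were 1.14 for the members and -0.07 for all genes. With this vector the T cell, myeloid and B cell lists summed to 1553 to 2064, 39.3 to 153 and 0.678 to 4.54 CPM, beside the control-vector values above. The CD8 T and NK cell list summed to 12.7 to 16.0 and the Treg list to 2281 to 4577 CPM, with Foxp3 at 263 to 480.4 CPM, above all control-vector libraries of either genotype. The part of these lists in the rise was not tested.

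The estimates of this rise varied from set to set. In sets 2, 3 and 5 in that order, the log2 fold change with the STAT5 vector was 1.20, 3.53 and 3.82 for Scd1, the first not called (adjusted p = 0.073, edgeR). The replicate numbers of set 2 behave as pairs, and with them as a block the value of Scd1 in set 2 was called (1.20 ± 0.44, adjusted p = 0.033). It was 1.33, 3.25 and 4.25 for Fads2 and 0.67, 1.41 and 2.13 for Acaca, all called. Scd2 went opposite ways, with -0.56 ± 0.21 in set 2 (called lower, adjusted p = 0.041), 0.78 ± 0.21 in set 3 and 1.64 ± 0.22 in set 5 (both called higher). Its libraries show the same, since set 2 had 430.1 and 361 CPM with control and 305 and 248 CPM with STAT5 vectors, while set 5 had 292 and 277 and 774 and 678 CPM. Acly (0.12) and Fads1 (0.20) were not called in set 2, Elovl5 (0.18) not in set 3 and Elovl6 (0.23) not in set 5. The differences between sets were not tested.

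**Figure D2:**
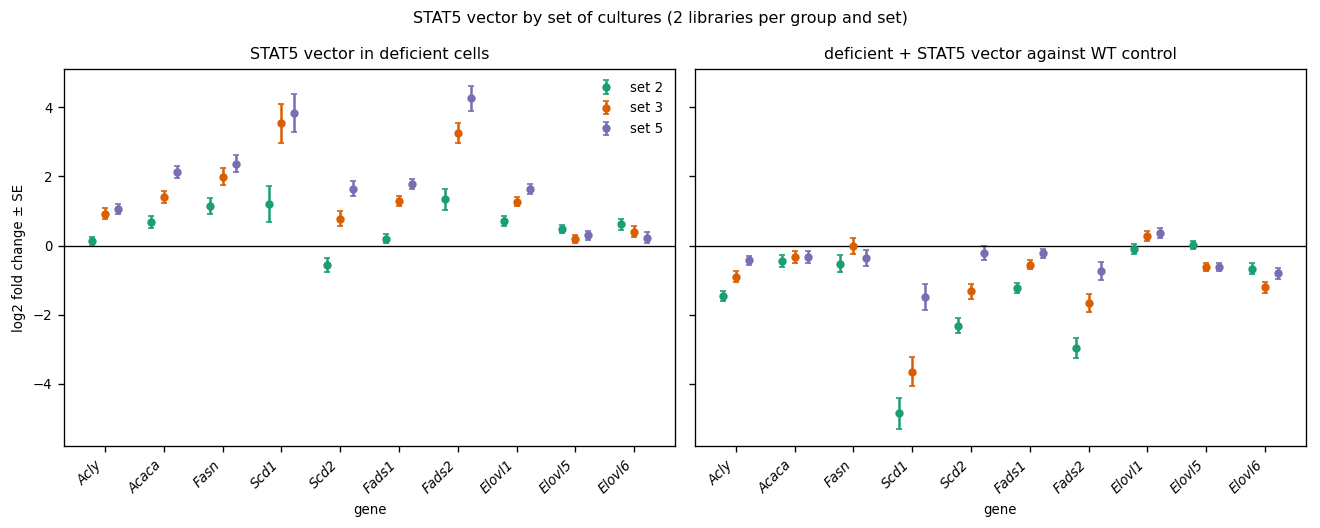
Log2 fold change of each member with its standard error by set: the STAT5 vector against the control vector in STAT5-deficient cells, and STAT5-deficient cells with the STAT5 vector against wild-type cells with the control vector. Set 2 gives the smallest and set 5 the largest rise for Scd1, Fads2 and Acaca, while Scd2 falls in set 2 and rises most in set 5.

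Of the 10 members, 8 were not called with the same vector in wild-type cells. Elovl5 (-0.20 ± 0.07, adjusted p = 0.045, edgeR) and Elovl6 (-0.30 ± 0.09, adjusted p = 0.021) were called lower, where 8.42% of all genes were called lower and 17.3% in either direction. Elovl6 lay at 77.8, 93.1 and 112 CPM with control and 59.9, 74.6 and 112 CPM with STAT5 vectors, and the groups overlap. Both calls were lost without wild-type control replicate 1 of set 2, 3 or 5, STAT5 replicate 2 of set 2, STAT5 replicate 1 of set 3 or STAT5 replicate 1 of set 5, with Elovl6 then at -0.28, -0.24, -0.26, -0.21, -0.28 and -0.28. Elovl5 was also not called without STAT5 replicate 2 of set 5 (-0.20, adjusted p = 0.084) or with no filter on low counts (-0.20), and neither was called with only the libraries compared (-0.21 and -0.31). That last setting called Fads2 lower (-0.35, adjusted p = 0.02). With DESeq2, Acly and Fads1 were called lower as well (-0.21 and -0.20). The Treg list summed to 2427 to 4142 CPM with this vector and Foxp3 to 39.0 to 249 CPM, and their part in these values was not tested. Fasn was called lower without STAT5 replicate 2 of set 2 (-0.42) or replicate 1 of set 3 (-0.43), Acly in the first of these (-0.26) and Fads1 in the other (-0.30). Elovl1 was called higher without STAT5 replicate 2 of set 3 (0.27, adjusted p = 0.0034) and without the first 4 libraries that stood apart (0.27, adjusted p = 0.0027). The difference between the genotypes in the response to the vector was called for all 10 members, from 0.52 ± 0.10 for Elovl5 to 3.28 ± 0.24 for Fads2, where 25.4% of all genes were called in that direction, and the median difference was 1.16 for the members against -0.01 for all genes.

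With the STAT5 vector, deficient cells did not reach the wild-type control level for most members. Of the 10, 8 were called lower than in wild-type control cells, where 19.1% of all genes were, and the median log2 fold change was -0.78 for the members against 0.00 for all genes. Scd1 stayed lowest relative to wild type (-3.33 ± 0.24, adjusted p = 1.1e-13, edgeR), followed by Fads2 (-1.79 ± 0.15), Scd2 (-1.29 ± 0.12), Acly (-0.93 ± 0.08) and Elovl6 (-0.89 ± 0.09). Fads1 (-0.67), Elovl5 (-0.41) and Acaca (-0.38) were also called, and Fasn (-0.30 ± 0.14, adjusted p = 0.09) and Elovl1 (0.18 ± 0.08, adjusted p = 0.077) were not. Without the first 4 libraries that stood apart 9 were called lower, with Fasn added (-0.31, adjusted p = 0.047), and Elovl1 was called higher (0.17, adjusted p = 0.03). Fasn was also called without wild-type control replicate 2 of set 2 (-0.39) and Elovl1 without deficient STAT5 replicate 1 of set 3 (0.21). By set, the gap of Scd1 was -4.85, -3.65 and -1.48 and that of Scd2 -2.32, -1.32 and -0.22, the last not called. Insig1 (-1.57), Srebf2 (-0.82) and Srebf1 (-0.73) were lower than in wild-type cells too, while Myc stood at 0.00 ± 0.17 (adjusted p = 1). In the vector comparison itself, Insig1 (0.59) and Srebf2 (0.40) were called higher and Srebf1 (0.25 ± 0.13, adjusted p = 0.09) was not. In deficient cells with the vector Stat5a lay at 603 to 1169 CPM, against 69.3 to 99.6 CPM in wild-type control cells. Stat5b stayed lower, at 29.5 to 70.6 against 165 to 210 CPM. The part of these levels in the gap was not tested. The comparisons of the loss, the vector and the remaining gap share their control libraries.

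A MYC vector in STAT5-deficient cells raised 3 members, the palmitate enzymes Acaca and Fasn and the desaturase Fads1. Fasn lay at 160.3 and 133 CPM with control and 346 and 210.2 CPM with MYC vectors in set 2, and at 177 and 123 against 280.2 and 213 CPM in set 5. Acaca lay at 53.5 and 50.2 against 90.3 and 82.6 CPM in set 2 and at 33.9 and 34.7 against 60.2 and 53.4 CPM in set 5. All MYC libraries lay above the controls of their own set for both genes, with 2 libraries per group and no share of all genes given for this. The log2 fold changes were 0.77 ± 0.13 for Acaca (adjusted p = 4e-05, edgeR), 0.85 ± 0.17 for Fasn (0.00058) and 0.46 ± 0.11 for Fads1 (0.0021). Of all genes 9.61% were called higher, and the median log2 fold change was 0.34 for the members against 0.02 for all genes. The Fads1 call was not present in set 2 alone (0.17, against 0.76 in set 5) and was lost without STAT5-deficient control replicate 2 of set 5 (0.36, adjusted p = 0.05). Without replicate 1 of that group, Fads2 was called as well (0.95, adjusted p = 0.048). Scd1 (0.43 ± 0.46, adjusted p = 0.65) and Scd2 (0.07 ± 0.15, adjusted p = 0.88) were not called. Myc itself rose by 2.90, and Srebf1 (0.04), Srebf2 (0.17) and Insig1 (0.18) were not called. Of the 4 pathway lists, 1 regulator, 2 supply genes, 1 further elongation or desaturation gene and 5 of the activation and binding genes rose, among them Fabp5 (1.31), and none fell, where 2.85% of all genes were called lower. The T cell list summed to 2680.5 to 2759.6 CPM with control and 2304 to 2417 CPM with MYC vectors in set 2 and to 2911 to 3073 and 2419 to 2516 CPM in set 5, and the Treg list to 524 to 591 and 454 to 484, and 484 to 554 and 383 to 429.6 CPM. Their part in these changes was not tested. In wild-type cells MYC gave 0 calls among the members with edgeR, where 0.795% of all genes were called. There, 1 member had an unadjusted p below 0.05 and DESeq2 called 0. Myc itself lay at 223.7 and 238.5 CPM with control and 391.6 and 314.9 CPM with MYC vectors in wild-type cells of set 2. In set 5 it lay at 163.9 and 152.0 against 346.3 and 283.0 CPM. Deficient cells had 88.7 and 94.2 against 1049 and 620.7 CPM in set 2. In set 5 they had 43.2 and 77.5 against 312.3 and 383.6 CPM. The part of this unequal rise in the lack of wild-type calls was not tested. The difference between genotypes gave 0 calls with edgeR, 3 at an unadjusted p below 0.05 and 1 with DESeq2 (1.26% of all genes), and 1, Fads1 (0.65, adjusted p = 0.012), without the first 4 libraries that stood apart or without deficient control replicate 1 of set 5 alone (0.61, adjusted p = 0.013).

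An AKT vector in STAT5-deficient cells moved 7 members, 5 up and 2 down. Acaca lay at 44.1 and 61.8 CPM with control and 65.6 and 97.9 CPM with AKT in set 3, and at 33.9 and 34.7 against 84.7 and 75.8 CPM in set 5. The change of Acaca was 0.98 ± 0.13 (adjusted p = 2.2e-07, edgeR). Fads2 (0.86 ± 0.26), Elovl1 (0.52 ± 0.10), Acly (0.50 ± 0.10) and Fads1 (0.46 ± 0.11) were also called higher, where 17% of all genes were. The elongases Elovl6 (-0.46 ± 0.12, adjusted p = 0.0031) and Elovl5 (-0.40 ± 0.09, adjusted p = 0.0006) were called lower, where 11.3% of all genes were, and the median log2 fold change was 0.41 for the members against -0.00 for all genes. Elovl5 had 156 and 159 CPM with control and 114 and 114 CPM with AKT in set 5, and 130.1 and 152 against 98.7 and 107 CPM in set 3, so it was lower in both sets. Within sets, Fads2 was called in set 3 (1.18) and not in set 5 (0.54), and Acly and Elovl1 in set 5 (0.64 and 0.74) and not in set 3 (0.37 and 0.30). Fasn (0.37 ± 0.17), Scd1 (0.20 ± 0.50) and Scd2 (0.17 ± 0.15) were not called. Insig1 (0.75) and Srebf2 (0.65) rose, Srebf1 (0.28) was not called, and Myc fell by 1.40. The summed Treg list was lower with AKT in deficient cells as well, at 200.4 to 242 against 539 to 641 CPM in set 3 and 119 to 125 against 484 to 554 CPM in set 5, and its part in these changes was not tested. Akt1 itself lay at 147 and 186 CPM with control and 730 and 801 CPM with AKT vectors in deficient cells of set 3. In set 5 it lay at 194 and 193 against 928 and 871 CPM. Wild-type cells had 281 and 286 against 466 and 449 CPM in set 3 and 317 and 324 against 548 and 484 CPM in set 5. The part of this unequal rise in the genotype differences was not tested. In wild-type cells AKT gave 0 member calls with edgeR, 3 at an unadjusted p below 0.05 and 0 with DESeq2, where 5.04% of all genes were called. With only the libraries compared, Scd1 (0.58), Fads2 (0.40) and Fasn (0.31) were called higher there. The response to AKT differed between genotypes for Acaca (0.93 ± 0.17, adjusted p = 0.00031) and Fads1 (0.52 ± 0.15, adjusted p = 0.016), against 7.43% of all genes called in that direction. The Fads1 difference was lost without deficient control replicate 2 of set 5 (0.41, adjusted p = 0.092), deficient AKT replicate 2 of set 3 or 5 (0.46 and 0.46), wild-type AKT replicate 2 of set 3 or 5 (0.47 and 0.49) or wild-type control replicate 1 of set 3 (0.47), and with only the libraries compared (0.50). Acly was called without wild-type control replicate 2 of set 5 (0.47), and Acly and Elovl1 without deficient control replicate 2 of set 3 (0.48 and 0.44), deficient AKT replicate 1 of set 3 (0.48 and 0.44) or wild-type AKT replicate 1 of set 5 (0.47 and 0.45). The AKT call of Fads2 in deficient cells was lost without control or AKT replicate 2 of set 5 (0.53, adjusted p = 0.19 and 0.76, adjusted p = 0.1). Fasn in deficient cells was called without the first 4 libraries that stood apart (0.50, adjusted p = 0.028) and without deficient control replicate 1 of set 5 alone (0.53), and the difference for Elovl1 without the same 4 (0.38, adjusted p = 0.029).

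Few members were called with a CD25 vector or with vectors in combination. A CD25 vector (Il2ra, a chain of the IL-2 receptor) gave 0 member calls with edgeR in deficient and in wild-type cells. There were 0 and 0 at an unadjusted p below 0.05 and 0 and 0 with DESeq2, and 0% and 0% of all genes were called. In deficient cells Il2ra itself lay at 154 and 131 CPM with control and only 379 and 342 CPM with CD25 vectors. In wild-type cells it lay at 2391 and 2521 against 2277 and 2484 CPM and did not rise. The part of these levels in the lack of calls was not tested. Adding MYC to STAT5 in deficient cells raised Elovl6 from 46.0 and 50.2 to 81.7 and 79.9 CPM (0.88 ± 0.16, adjusted p = 0.0018, edgeR), where 6.02% of all genes were called. The call was lost without deficient STAT5 and MYC replicate 2 (0.89). Scd1 went from 35.2 and 25.4 to 68.7 and 52.8 CPM (1.13 ± 0.38, adjusted p = 0.067, edgeR). It was not called, but was with no filter on low counts, with the replicate block and with only the libraries compared (1.13, adjusted p = 0.043, 1.14, adjusted p = 0.013 and 1.09, adjusted p = 0.0013). The last setting also called Fads2 (0.48), Acaca (0.33) and Elovl1 (0.28) higher. The summed Treg list lay at 4312 to 4577 CPM with STAT5 and 2878 to 3051 CPM with STAT5 and MYC, and the T cell list at 1553 CPM in both libraries against 1205 to 1248 CPM, and their part was not tested. Adding AKT to STAT5 in deficient cells, and MYC or AKT to STAT5 in wild-type cells, gave 0 member calls with edgeR, against 0.379%, 4.47% and 0.489% of all genes, with 1, 1 and 1 members at an unadjusted p below 0.05 and 0, 1 and 1 with DESeq2, which was Elovl6 in both wild-type comparisons (0.45 with MYC and -0.55 with AKT). Against wild-type control cells, deficient cells with STAT5 and MYC were higher for Elovl1 (0.68 ± 0.14) and lower for Elovl5 (-0.51 ± 0.12), where 19.8% and 15.2% of all genes were called in those directions. Deficient cells with STAT5 and AKT were lower for Elovl6 (-1.19 ± 0.17), Elovl5 (-0.82 ± 0.13) and Acly (-0.48 ± 0.14) and higher for Elovl1 (0.42 ± 0.14), where 10.8% and 9.41% of all genes were. In the first of these comparisons Elovl5 was not called without deficient STAT5 and MYC replicate 2 (-0.42, adjusted p = 0.087). In the second, Acly and Elovl1 were not called without wild-type control replicate 1 (-0.34 and 0.45) or without deficient STAT5 and AKT replicate 1 (-0.43 and 0.35), which had 209323 CPM of Rn45s, nor Elovl1 without wild-type control replicate 2 (0.39). Both were also lost with only the libraries compared (-0.45 and 0.45), and Acly with no filter on low counts (-0.43). Scd1 stood at -0.35 ± 0.37 and -0.86 ± 0.38 in these comparisons and was not called. In the second it was called without that STAT5 and AKT replicate 1 (-1.40, adjusted p = 0.04) and with the replicate block (-0.86, adjusted p = 0.035).

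**Figure D3:**
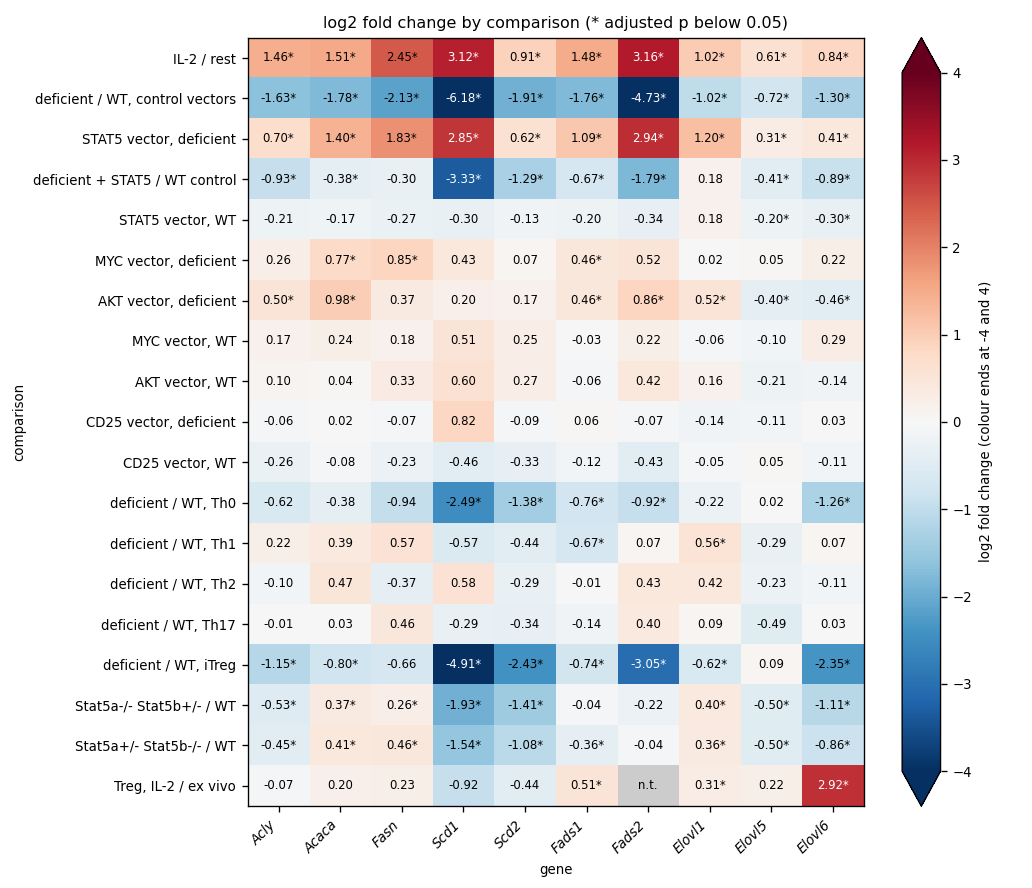
Log2 fold change of each member in 19 comparisons, with a star where edgeR's adjusted p is below 0.05, colours ending at 4 in either direction, and n.t. where a gene was not tested. All 10 members are starred for IL-2, STAT5 loss and the STAT5 vector in deficient cells, against 3 for MYC and 7 for AKT in deficient cells and 0 for either in wild-type cells.

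In cultures at day 3, STAT5 loss lowered the desaturases and Elovl6 in Th0 and iTreg conditions. In iTreg cultures Scd1 lay at 618 and 566 CPM in wild-type and 30.1 and 14.2 CPM in deficient libraries. Fads2 lay at 96.9 and 101 against 16.9 and 10.0 CPM, and Elovl6 at 109 and 68.8 against 20.6 and 18.8 CPM. For all 3 the deficient libraries were far below both wild-type ones, and no share of all genes is given for this. The log2 fold changes were -4.91 ± 0.49 (adjusted p = 4.5e-06, edgeR), -3.05 ± 0.25 (8.5e-07) and -2.35 ± 0.34 (0.00016). Scd2 (-2.43 ± 0.30), Acly (-1.15 ± 0.19), Acaca (-0.80 ± 0.27), Fads1 (-0.74 ± 0.17) and Elovl1 (-0.62 ± 0.15) were called lower too, giving 8 of 10 where 11.3% of all genes were, and Fasn (-0.66 ± 0.39, adjusted p = 0.25) and Elovl5 (0.09 ± 0.17, adjusted p = 0.78) were not called. In these cultures the median log2 fold change was -0.97 for the members against 0.03 for all genes. Acaca was not called with any of the 4 libraries left out, with values from -0.96 without deficient replicate 1 to -0.65 without deficient replicate 2, and -0.75 and -0.85 without wild-type replicate 1 or 2. Elovl1 was not called without wild-type replicate 1 (-0.53), and Elovl1 and Fads1 not without deficient replicate 1 (-0.58 and -0.61). The iTreg libraries of both genotypes also differed in the Treg list of 4 genes (3223 to 3290.3 against 1309 to 1502 summed CPM), the myeloid list (149 to 227 against 81.9 to 137), the B cell list (0.994 to 2.12 against 5.71 to 6.76), the T cell list (1543 to 1736 against 2124 to 2428) and the CD8 T and NK cell list (9.10 to 9.36 against 10.7 to 15.5), whose part in these changes was not tested. Srebf1 (-0.12), Srebf2 (-0.01) and Insig1 (-0.71) were not called, and Myc changed by -1.46 ± 0.31. On the pathway lists 18 tested genes fell and 3 rose, where 11.3% and 11.3% of all genes were called in those directions. Among those that fell were the cytosolic acetyl-CoA synthetase Acss2 (-2.37), Slc25a1 (-1.50), the very-long-chain elongase Elovl4 (-3.61) and Acsl6 (-4.49). Elovl4 was low, with a mean of 1.51 CPM over the 43 groups.

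In Th0 cultures 5 members were called lower without STAT5, where 2.68% of all genes were, and the median log2 fold change was -0.84 for the members against -0.01 for all genes. Scd1 lay at 337 and 146 CPM in wild-type and 64.0 and 25.4 CPM in deficient libraries, and Scd2 at 1606 and 1004 against 681 and 364 CPM. The pair of wild-type libraries differed widely between themselves. The log2 fold changes were -2.49 ± 0.44 for Scd1 (adjusted p = 0.0026, edgeR), -1.38 ± 0.29 for Scd2 (0.0091), -1.26 ± 0.33 for Elovl6 (0.03), -0.92 ± 0.23 for Fads2 (0.026) and -0.76 ± 0.17 for Fads1 (0.013). Only Scd1 was called without wild-type replicate 1 or without deficient replicate 2, with Scd2 then at -0.98 (adjusted p = 0.13) and -1.0 (adjusted p = 0.15), Elovl6 at -0.64 and -0.96, Fads2 at -0.81 and -0.65, and Fads1 at -0.76 and -0.58. Without wild-type replicate 2, Fads1 (-0.76) and Fads2 (-1.02) were not called. With only the libraries compared, Scd2 (-1.40), Elovl6 (-1.28), Fads2 (-0.95) and Fads1 (-0.79) were not called and Fasn was (-0.97). The summed Treg list lay at 2008 to 2482 CPM in wild-type and 820.3 to 1061 CPM in deficient libraries, the myeloid list at 106 to 122 against 169 to 232 and the CD8 T and NK cell list at 13.1 to 14.7 against 19.9 to 20.8, and their part in these changes was not tested. The replicate numbers of set 4 behave as pairs, and with them as a block Acly was called as well (-0.62, adjusted p = 0.028). Myc (-1.05 ± 0.30, adjusted p = 0.052), Srebf1 (-0.17), Srebf2 (-0.10) and Insig1 (-0.68) were not called.

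The effect of STAT5 loss differed between cultures for 3 members, and for 6 with the replicate number as a block. In Th2 cultures Scd1 lay at 162 and 189 CPM in wild-type and 291 and 246 CPM in deficient libraries (0.58 ± 0.42, adjusted p = 0.38, edgeR). No member was called in Th2 or Th17 cultures with edgeR, with 1 and 1 at an unadjusted p below 0.05, where 11.5% and 4.88% of all genes were. DESeq2 called 1 in each, Elovl1 higher in Th2 (0.34, adjusted p = 0.011) and Elovl5 lower in Th17 (-0.48, adjusted p = 0.0097). In Th1 cultures Fads1 was called lower (37.5 and 47.9 against 25.7 and 27.8 CPM; -0.67 ± 0.17) and Elovl1 higher (52.1 and 61.6 against 84.3 and 82.5 CPM; 0.56 ± 0.15), where 5.52% and 6.22% of all genes were called in those directions. Fads1 was not called without wild-type replicate 2 (-0.57) or deficient replicate 1 (-0.64), nor Elovl1 without replicate 1 of either genotype (0.51 and 0.52). Neither was called with only the libraries compared (-0.69 and 0.53), nor Elovl1 with no filter on low counts (0.55). The summed myeloid list lay at 98.8 to 104 CPM in wild-type and 222 to 288 CPM in deficient Th1 libraries, and its part was not tested. The change on STAT5 loss in Th2 minus that in Th0 was 3.08 ± 0.60 for Scd1 (adjusted p = 0.011) and 1.35 ± 0.33 for Fads2 (0.032), against 4.39% of all genes called. In iTreg minus Th0 it was -2.42 ± 0.60 for Scd1 (0.041) and -2.13 ± 0.33 for Fads2 (0.0027), against 2.72%. In Th1 minus Th0 it was 0.78 ± 0.21 for Elovl1 (0.038), against 4.94%, and in Th17 minus Th0 no member was called with edgeR, 8 at an unadjusted p below 0.05 and 3 with DESeq2, against 1.58%. The Th2 difference of Scd1 was called with each library left out in turn. That of Fads2 was called only when deficient Th0 replicate 1 was the one left out, and otherwise ranged from 1.08 without deficient Th0 replicate 2 to 1.45 without wild-type Th0 replicate 2. In iTreg minus Th0, Fads2 was called in each such fit, while Scd1 was not without wild-type Th0 replicate 2 (-1.93), deficient Th0 replicate 1 (-1.61), wild-type iTreg replicate 1 or 2 (-2.35 and -2.49) or deficient iTreg replicate 2 (-1.96). Elovl1 in Th1 minus Th0 was not called without any Th0 library (0.81 and 0.75 for wild-type, 0.71 and 0.86 for deficient replicates 1 and 2) or without Th1 replicate 1 of wild-type (0.77) or deficient cells (0.75). With only the libraries compared, Fads2 in Th2 (1.32), Scd1 in iTreg (-2.40) and Elovl1 in Th1 (0.80) minus Th0 were not called, nor was the last with no filter on low counts (0.82). Without deficient Th0 replicate 1, Scd1 was called in Th1 minus Th0 (2.74) and, with Fads2, in Th17 minus Th0 (3.02 and 1.65), and without wild-type Th0 replicate 2, Scd1 and Elovl6 were called in Th1 minus Th0 (2.42 and 1.76). With the replicate block, 5 members were called in Th1 minus Th0, Elovl1 with Scd1 (1.92, adjusted p = 0.0064), Elovl6 (1.29, adjusted p = 0.036), Fads2 (0.99, adjusted p = 0.033) and Acly (0.82, adjusted p = 0.044). In Th17 minus Th0 the block gave 2, Scd1 (2.20, adjusted p = 0.0051) and Fads2 (1.34, adjusted p = 0.011), and in Th2 minus Th0 it added Scd2 (1.09, adjusted p = 0.04). Averaged over the 5 cultures, Scd1 (-1.53 ± 0.19), Scd2 (-0.98 ± 0.13), Elovl6 (-0.72 ± 0.14), Fads2 (-0.61 ± 0.10), Fads1 (-0.46 ± 0.08) and Acly (-0.33 ± 0.08) were called lower, where 12.1% of all genes were, and the block added Elovl5 (-0.18, adjusted p = 0.046). Elovl5 was also called in this average without Th2 replicate 1 or 2 or Th1 replicate 2 of wild-type cells (-0.19, -0.21 and -0.22) or Th1 replicate 1 of deficient cells (-0.21).

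**Figure D4:**
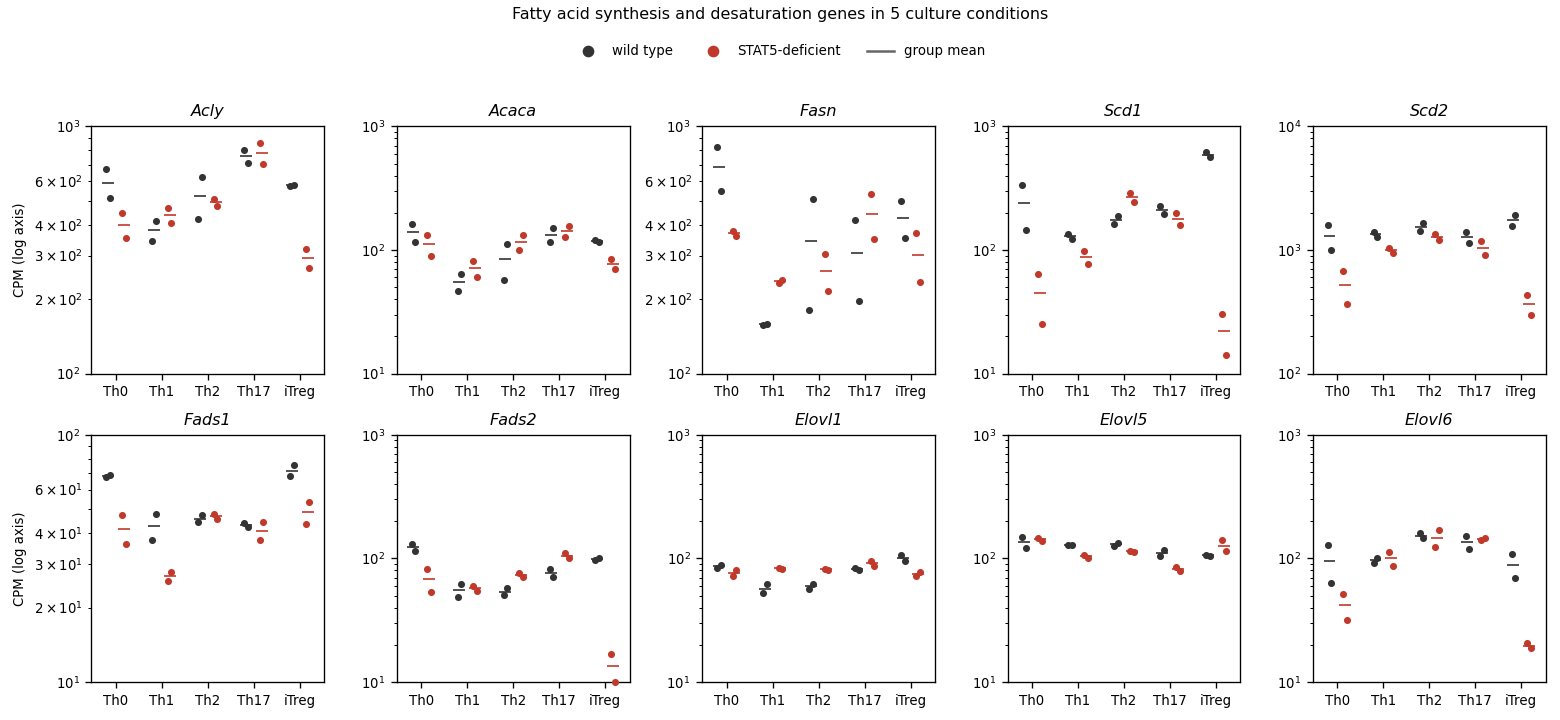
CPM on a log axis for each member in each library of set 4, by culture and genotype; points are libraries and lines are group means. Scd1, Fads2 and Scd2 show the widest gaps between genotypes in iTreg cultures, and no member is called by edgeR between genotypes in Th2 or Th17 cultures, where DESeq2 calls 1 each.

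The members also differed between cultures of wild-type cells. Th1 cultures were lower than Th0 for 6 members, where 11.4% of all genes were, led by Fasn at 822 and 546 CPM in Th0 and 157 and 159 CPM in Th1 (-2.01 ± 0.41, adjusted p = 0.0024, edgeR). Both Th1 libraries were below both Th0 libraries, and no share of all genes is given for this. Acaca (-1.25 ± 0.27), Fads2 (-1.07 ± 0.23), Fads1 (-0.58 ± 0.17), Acly (-0.55 ± 0.19) and Elovl1 (-0.50 ± 0.15) made up the rest. Th2 cultures were lower for Fads2 (-1.14 ± 0.23), Fads1 (-0.50 ± 0.17) and Elovl1 (-0.47 ± 0.15), where 13.4% of all genes were. Fasn was the only member called in Th1 cultures with each of the 4 libraries left out in turn. Without Th1 replicate 1, Acaca (-1.07), Fads2 (-0.93), Fads1 (-0.45), Acly (-0.45) and Elovl1 (-0.42) were all lost. Without Th0 replicate 1 the calls of Acly (-0.32), Elovl1 (-0.53) and Fads1 (-0.58) were lost, without Th0 replicate 2 those of Elovl1 (-0.47) and Fads1 (-0.59), and without Th1 replicate 2 those of Acly (-0.57) and Elovl1 (-0.50). The calls of Acly, Elovl1 and Fads1 were lost with no filter on low counts (-0.51, -0.47 and -0.55), those of Acly and Elovl1 with only the libraries compared (-0.53 and -0.49) and that of Acly with RLE scaling (-0.51). In Th2 cultures Fads2 was called in each fit that left out 1 library, Fads1 in none (-0.50 and -0.51 without Th0 replicate 1 and 2, -0.54 and -0.38 without Th2 replicate 1 and 2), and Elovl1 was called only without Th2 replicate 1. Without Th2 replicate 2, Fasn (-1.68) and Acaca (-1.04) were called lower, and without Th0 replicate 1, Elovl6 (1.37) higher. The Th2 calls of Fads1 and Elovl1 were lost with no filter (-0.48 and -0.44) and with only the libraries compared (-0.47 and -0.43), and that of Fads1 with RLE scaling (-0.44). With no filter, Fasn (-0.96, adjusted p = 0.019) and Acaca (-0.66, adjusted p = 0.048) were called lower and Elovl6 (0.78, adjusted p = 0.031) higher in Th2 cultures. Th2 libraries had 4807 to 5017 CPM of Rn45s against 2413 to 3186 in Th0, and 193 to 229 against 106 to 122 CPM of the myeloid list, and their part was not tested. The block also called Elovl6 higher in Th2 cultures (0.78, adjusted p = 0.026). In Th17 and iTreg cultures no member was called with edgeR, against 7.41% and 7.95% of all genes, with 4 and 2 at an unadjusted p below 0.05 and 3 and 2 with DESeq2. Scd1 in iTreg cultures stood at 1.38 ± 0.42 (adjusted p = 0.057), and with the replicate block it was called (1.48, adjusted p = 0.0017). It was also called without Th0 replicate 1 (2.13, adjusted p = 0.02). In Th17 cultures the block called Fasn (-1.10, adjusted p = 0.047) and Fads1 (-0.58, adjusted p = 0.042) lower, and Fasn was called without Th17 replicate 1 (-1.73, adjusted p = 0.041).

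In cells with a single remaining Stat5 gene copy, some members fell and others rose. In cells with no Stat5a and 1 copy of Stat5b, Stat5a stood at 4.75 and 4.99 CPM against 191 and 189 in wild-type cells and Stat5b at 54.6 and 57.9 against 259 and 275. In cells with no Stat5b and 1 copy of Stat5a, Stat5b stood at 29.0 and 31.9 CPM and Stat5a at 98.7 and 111 CPM. Scd1 lay at 338 and 355 CPM in wild-type libraries, 105 and 83.8 CPM with no Stat5a and 144 and 106 CPM with no Stat5b. Scd2 lay at 2268 and 2415, 977 and 858 and 1201 and 1113 CPM in that order. Both desaturases were below wild type in all 4 mutant libraries, and no share of all genes is given for this. With no Stat5a, the log2 fold changes were -1.93 ± 0.14 for Scd1 (adjusted p = 8.8e-07, edgeR), -1.41 ± 0.08 for Scd2 (1.6e-07) and -1.11 ± 0.10 for Elovl6 (6.5e-06), and Acly (-0.53) and Elovl5 (-0.50) were called lower too. With no Stat5b they were -1.54 ± 0.13, -1.08 ± 0.08 and -0.86 ± 0.10 (adjusted p = 3.5e-06, 1e-06 and 3.4e-05), with Elovl5 (-0.50), Acly (-0.45) and Fads1 (-0.36) also lower.

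Of the enzymes that build palmitate, Acaca and Fasn went the other way, while Acly fell. Acaca lay at 187 and 191 CPM in wild-type libraries, 239 and 269 CPM with no Stat5a and 255 and 269 CPM with no Stat5b. Acaca (0.37 ± 0.07 and 0.41 ± 0.07), Fasn (0.26 ± 0.09 and 0.46 ± 0.09) and Elovl1 (0.40 ± 0.08 and 0.36 ± 0.08) were called higher in both genotypes. Of all genes 29.2% were called higher and 28.4% lower with no Stat5a, and 28.7% and 28.3% with no Stat5b. The share of members called higher was thus close to that of all genes. The median log2 fold changes of the members were -0.36 and -0.41 against 0.01 and 0.01 for all genes. The Fasn call with no Stat5a was lost without wild-type replicate 1 (0.14) or replicate 1 or 2 of that genotype (0.30 and 0.21), and Fads2 was called lower without its replicate 1 (-0.39). Between the mutant genotypes edgeR called Fads1 (0.33 ± 0.07, adjusted p = 0.049) and no other member, where 2.52% of all genes were called, and this call was lost with any of their 4 libraries left out (0.38 and 0.27 without replicate 1 or 2 of the first genotype, 0.29 and 0.37 of the second). It was also lost with DESeq2 and with RLE scaling (0.32 and 0.32). DESeq2 called Scd2 in its place (-0.34, adjusted p = 0.0013), and with no filter on low counts Scd1 (-0.40, adjusted p = 1e-05) and Scd2 (-0.33, adjusted p = 2.4e-05) were called beside it. Scd1 was called without replicate 2 of the second genotype as well (-0.60). Srebf1 (-0.07) and Srebf2 (-0.13) were not called with no Stat5a, Insig1 (-0.41) fell, and Acss2 (-1.94), Idh1 (-1.40) and the phosphatidate phosphatase Lpin1 (-2.04) fell further. The myeloid list summed to 135 to 149.6 CPM in wild-type, 21.8 to 24.9 with no Stat5a and 63.2 to 66.4 with no Stat5b libraries, and Rn45s to 2095 to 2281, 4363 to 6793 and 3236 to 4414. The Treg list summed to 2061 to 2367, 921 to 929.9 and 925 to 958 CPM in that order and the CD8 T and NK cell list to 9.87 to 12.2, 4.50 to 5.53 and 4.24 to 7.19. The part of these lists in the changes was not tested.

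Treg cells cultured with IL-2 differed from freshly isolated ones mainly in Elovl6. Elovl6 lay at 29.0 and 28.4 CPM ex vivo and 227 and 225 CPM after culture, and the groups were far apart (2.92 ± 0.06, adjusted p = 9.8e-07, edgeR). Fads1 (17.7 and 18.0 against 27.7 and 25.4 CPM; 0.51 ± 0.11) and Elovl1 (51.0 and 53.7 against 66.6 and 68.6 CPM; 0.31 ± 0.09) were called higher with small changes, where 15.2% of all genes were, and the median log2 fold change was 0.22 for the 9 members tested against 0.00 for all genes. The call of Elovl1 was lost with any of the 4 libraries left out (0.27 and 0.34 without ex vivo replicate 1 or 2, 0.33 and 0.29 without cultured replicate 1 or 2) and that of Fads1 without cultured replicate 1 (0.45), and DESeq2 called neither (0.30 and 0.50). Acly (-0.07 ± 0.06), Acaca (0.20 ± 0.09), Fasn (0.23 ± 0.07), Scd1 (-0.92 ± 0.50), Scd2 (-0.44 ± 0.20) and Elovl5 (0.22 ± 0.10) were not called, and Fads2 had 0 to 3 counts per library and was not tested. With no filter on low counts, Scd1 (-0.91, adjusted p = 0.026) and Scd2 (-0.44, adjusted p = 0.013) were called lower and Fasn (0.23, adjusted p = 0.022) and Elovl5 (0.22, adjusted p = 0.047) higher. The replicate block called the same 4 and Acaca (-0.87, adjusted p = 8.6e-10 for Scd1, -0.47, adjusted p = 6.3e-06 for Scd2 and 0.20, adjusted p = 0.027 for Acaca), although 1 pair of numbers cannot show that they pair the libraries. Fasn and Elovl5 were called higher without cultured replicate 1 (0.32 and 0.36), Scd1 lower without ex vivo replicate 2 (-1.50) and Scd2 lower without cultured replicate 2 (-0.89). Insig1 rose by 0.63, Srebf1 (0.02) and Srebf2 (0.19) were not called, and Dgat1, which makes triglycerides, rose by 1.74. B cell genes summed to 99.4 to 214 CPM ex vivo and 102 to 261 after culture, myeloid genes to 261 to 622 and 207 to 497, Treg genes to 3066 to 3364 and 5793 to 6076, and T cell genes to 2470.4 to 2481 and 2186 to 2198, and their part in these changes was not tested.

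**Figure D5:**
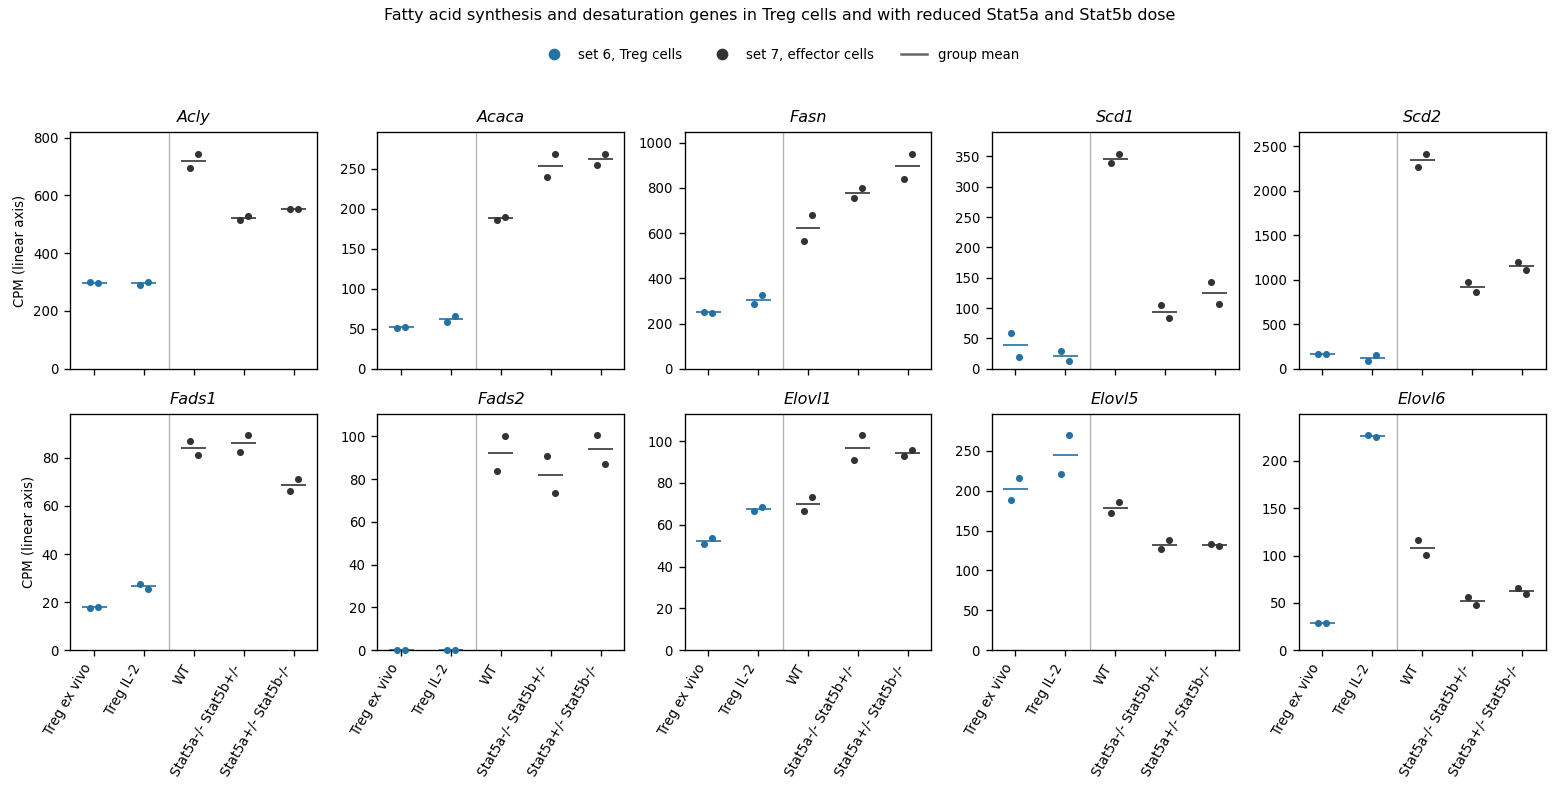
CPM on a linear axis for each member in each library of Treg cells, ex vivo or after IL-2 culture, and of wild-type cells and cells with 1 remaining Stat5 copy; points are libraries and lines are group means. Elovl6 rises in cultured Treg cells, and Scd1, Scd2 and Elovl6 are lower in both mutant genotypes than in wild type.

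The profiles of the members were alike to different degrees. Over the 43 group means, centred within each set on the log2 scale, the correlation of each gene with the mean profile of the members was highest for Fads2 (Pearson r = 0.982) and Scd1 (0.975) and lowest for Elovl6 (0.659) and Elovl5 (0.569), with Acly at 0.938, Fads1 at 0.916, Scd2 at 0.913, Acaca at 0.871, Fasn at 0.870 and Elovl1 at 0.758. These groups share libraries' depth and control groups, Scd1 and Fads2 have the widest range and so weigh most in the mean, and the values are a description with no test. Outside the member and pathway lists, the genes most like that mean were the sterol synthesis genes Fdps (0.969) and Sqle (0.967) and the glycolysis genes Pfkl (0.969), Tpi1 (0.966) and Ldha (0.963).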

How the data were processed

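The authors deposited read counts per gene in 1 table for each set. The submitters' processing notes name TopHat2, Bowtie2, HTSeq and the mm9 build, without versions. Whether counting used strand is not given in the sources used here, so overlapping genes and close copies are uncertain. The tables hold no other per-sample columns. No pair of replicates (0 of 47) held identical values. In sets 4 and 6, 27 rows with names turned into dates were left out (at most 0.266% and 0.258% of a library's counts), and in sets 1 and 3, 253 symbols were given back a lost hyphen. For 1 pair of Th1 libraries (replicate 2 of each genotype) a cell type label says Th2 while title and treatment say Th1, and the title was followed.

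Tests used edgeR 4.0.16 (R 4.3.3) after filterByExpr and TMM scaling, with quasi-likelihood tests, 1 mean per group, and Benjamini-Hochberg adjustment over all genes tested. Calls needed an adjusted p below 0.05. Sets 2, 3 and 5 shared 1 model (52 libraries, 16359 genes), and a comparison across them averages the differences within sets. Sets 1, 4, 6 and 7 had 1 model each (12262, 15299, 11942 and 12392 genes), in which 10, 10, 9 and 10 members were tested. With 2 libraries in most groups, the spread rests on the other groups of a model. CPM are counts scaled by the total of the kept rows of a library, and an SE is the log2 fold change divided by the square root of its F. The scripts were tested on simulated data.

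The members, the pathway and marker lists and the alternatives were chosen with earlier results of these data known. Beside the members, Srebf1, Srebf2, Insig1, Myc, Stat5a and Stat5b, the text names at most 4 called genes per pathway list and comparison, those with the largest change, and the 5 genes most like the members. Alternatives were RLE scaling, no filter on low counts, DESeq2 1.42.0, the replicate number as a block, only the libraries compared, leaving out the first 4 libraries that stood apart, and leaving out each library in turn (with the tested genes and dispersion trend kept). Deviations of libraries with the same replicate number correlated at 0.11 to 0.75 in all 45 pairs of groups of set 4 and at 0.11 to 0.42 in all 15 of set 2. The numbers of these sets were treated as pairs only in the fits with the block. The main calls, their SEs and the stars of the figures come from fits with no block, so their p-values leave this pairing out. The block within set 2 was chosen after seeing the data. No mm9 annotation was at hand, so the chromatin immunoprecipitation peaks were not linked to the members, and these files are not analysed here.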

Additional observations from a re-analysis of the deposited data

Results flagged for a closer look

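The response to the STAT5 vector differed between genotypes for all 10 members by the test of that difference (deficient minus wild type, log2 scale). It was 3.28 for Fads2, 3.15 for Scd1, 2.10 for Fasn, 1.57 for Acaca, 1.29 for Fads1, 1.02 for Elovl1, 0.91 for Acly, 0.75 for Scd2, 0.71 for Elovl6 and 0.52 for Elovl5. The response to the AKT vector differed for Acaca (0.93) and Fads1 (0.52).

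In the fit without the replicate number as a block, the change on STAT5 loss differed between cultures for 3 members. It was higher in Th2 than in Th0 cultures for Scd1 (3.08) and Fads2 (1.35), lower in iTreg than in Th0 cultures for Scd1 (-2.42) and Fads2 (-2.13), and higher in Th1 than in Th0 cultures for Elovl1 (0.78). With the block, which the pairing of set 4 calls for, these differences were called too, and 3 further members were called higher than in Th0 cultures, Elovl6 (1.29) and Acly (0.82) in Th1 and Scd2 (1.09) in Th2. The block also called Scd1 (1.92 and 2.20) and Fads2 (0.99 and 1.34) higher in Th1 and Th17.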

How the results depend on the processing

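Counts of called members were the same under all settings, leaving out each library included, for IL-2, STAT5 loss with control vectors, the STAT5 vector in deficient cells and its difference between genotypes (10 each). No member changed direction with its call between settings of the same comparison. Between sets Scd2 did, since with the STAT5 vector in deficient cells it was called lower in set 2 and higher in sets 3 and 5. Under the other settings, counts that moved by over 1.5 times are given here beside the count of the report, and the cause was not tested. With no filter on low counts they were 1 for the STAT5 vector in wild-type cells (2), 2 for MYC added to STAT5 in deficient (1) and 1 in wild-type cells (0), 1 for loss in Th1 (2), 3 for wild-type Th1 (6), 1 each for wild-type Th17 and iTreg (0), 3 for loss in Th1 minus Th0 (1) and in Th17 minus Th0 (0), 7 for Treg cells (3) and 3 between the single-copy genotypes (1). With DESeq2 they were 4 for the STAT5 vector in wild-type cells, 1 for the genotype difference of MYC (0), 1 each for MYC and AKT added to STAT5 in wild-type cells (0), 1 each for loss in Th2 and Th17 (0), 3 and 2 for wild-type Th17 and iTreg, 6, 4 and 3 for loss in Th1, Th2 and Th17 minus Th0 (1, 2 and 0), and 1 for Treg cells. With only the libraries compared they were 1 for the STAT5 vector and 3 for AKT in wild-type cells (2 and 0), 1 for the genotype difference of AKT (2), 5 and 2 for MYC added to STAT5 in deficient and wild-type cells, 2 for deficient cells with STAT5 and AKT against wild type (4), 2 and 0 for loss in Th0 and Th1 (5 and 2), 1 for wild-type Th2 (3), and 1 each for loss in Th2 and in iTreg minus Th0 (2 each). With RLE scaling they were 1 each for wild-type Th17 and for loss in Th17 minus Th0, and 0 between the single-copy genotypes. Without the first 4 libraries that stood apart the genotype difference of MYC had 1.

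With the replicate number as a block, counts were 2 for MYC added to STAT5 in deficient cells, 2 and 1 for wild-type Th17 and iTreg, 5 and 2 for loss in Th1 and Th17 minus Th0, 8 for Treg cells and 4 between the single-copy genotypes (Fads1, Scd1, Scd2 and Elovl6), and the block moved no other count by over 1.5 times. Pairing of the numbers rests on the correlations in sets 2 and 4. In sets 1, 3, 5 and 7 they were not all above 0.1, and set 6 has 1 pair (0.58), so in these sets the libraries share a number and nothing more is known. Within set 2, an alternative chosen after seeing the data, the block also called Scd1 with the STAT5 vector in deficient cells (1.20) and the genotype difference in the response to it for Scd1 (1.67), Acaca (0.69) and Elovl6 (0.69), and changed no other call there. Leaving out 1 library at a time gave 0 to 3 calls for the STAT5 vector in wild-type cells, 8 to 9 for deficient cells with STAT5 against wild type, 2 to 4 for MYC and 6 to 8 for AKT in deficient cells, 0 to 1 and 1 to 4 for their genotype differences, 0 to 1 for MYC added to STAT5 in deficient cells, 1 to 2 and 2 to 4 for STAT5 with MYC or AKT against wild type, 1 to 5, 0 to 2 and 5 to 7 for loss in Th0, Th1 and iTreg, 6 to 7 for the average, 1 to 4, 1 to 3, 0 to 1 and 0 to 1 for wild-type Th1, Th2, Th17 and iTreg, 0 to 2, 1 to 2, 0 to 2 and 1 to 2 for loss in Th1, Th2, Th17 and iTreg minus Th0, 2 to 3 for Treg cells, 7 to 8 with no Stat5a and 0 to 1 between the single-copy genotypes. The CCAAT box was in 3 member genes when only the 250 bases before the start were searched. Low counts limit Scd1 and Fads2 in deficient cells and Fads2 in Treg cells.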
